A study of Mus musculus with 10 samples.

Results

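Cultured brown adipocytes were followed from day 3 through day 5 to day 7 of differentiation, with 1 array per day. These 3 arrays are 3 of the 10 in the series, and day 0 was left out of the choice of probes. Of the 59709 probes on the array, 43143 gave signal well above background on 2 or all 3 of them and make up the set described here. Another 22 were left out because their spots were flagged as outliers on 1 of the 3 arrays.

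The cells were wild type mouse brown adipocytes that were differentiated for 7 days and lysed on the way, at days 0, 3, 5 and 7. The series' design text speaks of 2 replicates, of which 1 array per day was analysed here. The labels do not say how the culture was started or induced, or whether several cultures were pooled. The other 6 arrays hold fat of wild type mice on chow that were injected into the abdomen once a day for 7 days, either with saline (brown fat, 2 arrays, and white fat, 2 arrays) or with 1 mg/kg of the β3-adrenergic agonist that the titles call CL (white fat, 2 arrays). Total RNA was labelled with Cy3 and hybridised, 1 colour per array, to an Arraystar mouse array whose probes target long non-coding RNAs as well as coding transcripts.

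Brown adipocytes burn fuel to make heat, which depends on the uncoupling protein Ucp1 in dense mitochondria. In culture, precursor cells first leave the cell cycle and then take up lipid and switch on the adipocyte and thermogenic genes, under Pparg, the C/EBP factors and Prdm16. Long non-coding RNAs are transcripts that are not translated. Several are known to act in fat cell differentiation, and many are present at low levels and in few cell types.

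These named programmes could not be followed directly, because most probes carry only a design number. Of 9 lists of genes that mark brown fat, general adipocytes, precursors, mitochondria, metabolism, the cell cycle, reference genes, immune cells, and endothelium and muscle, 4 had any member on the array under its own name. Of the 20 brown and thermogenic genes only Gk was there, and of the 25 general adipocyte and 15 precursor genes there was 0. The labelled cell type was therefore not checked against its markers. Gk, glycerol kinase, which returns glycerol to triglyceride synthesis, stayed within 2-fold across the days, with log2 levels of -0.84, -0.94 and -0.41 at days 3, 5 and 7. At day 0 its level was -0.27.

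All levels below are log2 signals minus the 75th percentile of the same array, so a level of 0 is a spot brighter than 75% of probes, and a difference of 1 is a 2-fold change. Levels of different probes are not compared, because each probe binds with its own strength. The share of all probes above background was 78.3% at day 3, 68.1% at day 5 and 70.8% at day 7, and the lowest level of a probe above background was -4.65, -4.0 and -4.08. Values of -6.98, -6.33 and -6.40, and of -6.34 at day 0, are the lowest each array gives. The 3 arrays correlated over the 43143 probes at 0.981 (days 3 and 5), 0.978 (days 3 and 7) and 0.973 (days 5 and 7). Across all probes the median step was -0.08 from day 3 to day 5 and 0.19 from day 5 to day 7, and changes are read against that shift. With 1 array per day there was no test between days and no error from replicates. As a guide to array spread, 3.87% of probes differed at least 2-fold between the 2 brown fat arrays, 4.13% between the 2 saline white fat arrays and 29.8% between the 2 agonist white fat arrays. By their recorded positions the 4 culture arrays lay in slide column 1, each day in a row of its own. Day and slide row therefore cannot be told apart, and these positions do not show whether the arrays shared a slide.

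Where a probe lies on the array also moved with the day 5 values. Positions are the same on every array, and the printed area was divided into 8 bands of rows and 4 bands of columns. Among the dimmer probes, the day 5 level minus the median of the other 3 culture arrays ran from -0.85 to 0.35 across the 32 blocks, against -0.21 to 0.05 for day 3 and -0.32 to 0.20 for day 7. Among the brighter probes the day 5 range was -0.31 to 0.31. The lowest day 5 blocks were in the upper rows. Results are therefore given over all probes, for the lower rows alone, and after each array's local offset was subtracted, called position-centred below. This division was chosen after the data were seen, and the part that position plays in the results was not tested further. A smaller feature was on the day 3 array, where 21 probes were at least 3 log2 units above all 3 other culture arrays, and 16 of the 21 lay in a single area that holds 9.02% of tested probes. One of them, ASMM9PARTA038958, had levels of -4.30, 7.91, -4.04 and -3.73 at days 0, 3, 5 and 7. Day 5 had 5 such probes and day 7 had 4.

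Each tested probe was placed by its 2 steps, with at least 2-fold required for a step. A steady rise was higher at both steps and a steady fall lower at both. A day 5 peak was higher at day 5 than at both neighbours, and a day 5 trough lower. The steady rises numbered 113 (0.262% of 43143), the steady falls 48 (0.111%), the peaks 301 (0.698%) and the troughs 2064 (4.78%). Steps of 2-fold at the first interval alone numbered 675 upward (1.56%) and 585 downward (1.36%), and at the second alone 1541 upward (3.57%) and 1973 downward (4.57%). No step of 2-fold was seen for 35843 probes (83.1%). From day 3 to day 7 directly, 1742 probes were at least 2-fold higher (4.04%) and 2517 lower (5.83%).

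**Figure D1:**
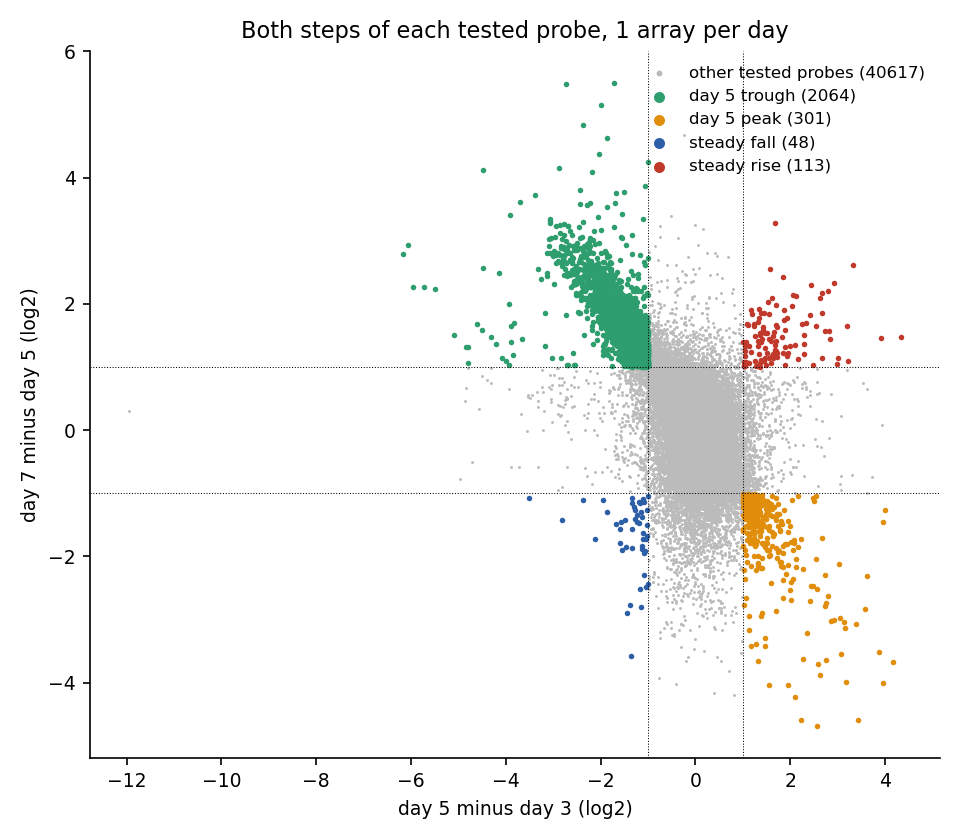
Each point is a tested probe, with its log2 step from day 3 to day 5 on the horizontal axis and from day 5 to day 7 on the vertical axis, coloured by pattern; lines mark 2-fold. The troughs (2064) fill the corner of a lower then a higher step, while the steady rises (113) and steady falls (48) are few.

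Position touched these patterns unequally. The troughs numbered 1895 in the upper rows (8.79% of the probes there) and 169 in the lower rows (0.783%), and 1011 after position-centring, of which 955 were troughs before. Steady rises were 48 in the upper and 65 in the lower rows, and 114 after centring, of which 94 were steady rises before. Steady falls were 24 in each, and 53 after centring, with 34 in common. After centring the patterns still varied with position. The trough share of a block reached 10.6%, and the highest peak share of a block was 5.26%, against 2.61% before. Another member lay within 3 rows and 3 columns for 81.9% of centred troughs, against 28.5% of other tested probes. For centred peaks the share was 63.9%, against 18.3%. Late rises were 5.02% of the upper and 2.13% of the lower rows, and early falls 1.76% and 0.955%; 13 of the 21 bright day 3 probes were early falls. With normexp background correction and quantile normalization the rises, falls, peaks and troughs numbered 51, 11, 82 and 138, nearly all of them (51, 10, 77 and 131) with the same pattern as here. The split between peaks and troughs also moved with scaling: it was 301 to 2064 here, 490 to 1500 after quantile normalization and 525 to 1557 after scaling to the median.

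Of the 113 steady rises, the 104 that were above background on all 3 arrays ended 4.13-fold to 56.4-fold above day 3, with a median of 8.15-fold. By probe name, 65 of the 113 were in the block of design numbers taken to be coding (a block of which no probe is in the deposited value table, an inference and not a label), 47 had other design numbers and 1 was a lincRNA locus. The probes named by GenBank accession, by ultraconserved element or by RefSeq accession gave 0 steady rises, where the share over all probes is 0.262%. The first 2 of these classes hold only 740 and 448 tested probes, and after position-centring 2 of the GenBank probes were steady rises.

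The first riser of the coding block by its smaller step was ASMM9PARTA029387. Its levels were -1.70, 0.75 and 3.05 at days 3, 5 and 7, a 26.9-fold difference from day 3 to day 7 with steps of 5.44-fold and 4.94-fold. At day 0 it was at -4.93, not above background, so the level was higher at every later day. The next was ASMM9PARTA037347, which ran from -4.12 through -1.32 to 0.88 (32.1-fold) but had been at 3.63 at day 0. These probes thus shared their course from day 3 and differed in where they started.

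Among other design numbers, ASMM9PARTA047131 ran from -3.78 through -0.86 to 1.47 (38.1-fold), from the lowest value of the array at day 0. ASMM9PARTA049103 ran from -4.6 through -2.49 to -0.35 (19-fold), also from the lowest value at day 0. Both had steps of similar size at each interval. The only lincRNA locus, MM9LINCRNAEXON10179-, went from -1.65 through -0.22 to 1.37 (8.13-fold). Its day 0 level was 5.27, so at day 7 it was still below the start of differentiation. These 5 probes kept the pattern after position-centring, and each had 0 other steady risers within 3 rows and 3 columns. Over all 113 risers, 20.4% had another riser that near, against 7.63% of other tested probes.

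A few risers with large changes were picked after their values were seen. ASMM9PARTA029945 had the largest change among risers measured on all 3 arrays, from 0.49 through 4.83 to 6.31 (56.4-fold), and it had been at 9.49 at day 0. ASMM9PARTA031052 went from 4.70 through 7.91 to 9.0 (19.7-fold) after 4.78 at day 0. ASMM9PARTA027436 went from 2.92 through 5.66 to 7.23 (19.8-fold) after -2.88 at day 0. In all 3 the first step was the larger, at 20.2-fold, 9.24-fold and 6.66-fold. Of the 9 risers that were below background at day 3, ASMM9PARTA018350 was at least 16.7-fold and ASMM9PARTA016215 at least 17.3-fold higher at day 7, counted from the lowest level above background on the day 3 array. All 9 still met 2-fold at both steps by that bound. ASMM9PARTA018350 and ASMM9PARTA016215 each had 1 other riser within 3 rows and 3 columns. Farther from ASMM9PARTA016215, in row 376 and column 30, lay the risers ASMM9PARTA025074, ASMM9PARTA040364 and ASMM9PARTA045415. They were in rows 378 to 384 and columns 32 to 34.

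The day 0 array, which played no part in the choice, divided the risers. In 69 of 113 (61.1%) the day 0 level was at least 2-fold above day 3, against 8.55% of all 43132 tested probes with a day 0 value. A low day 3 level was part of the choice of risers, so that this share is a description. Their median levels were 3.59, -1.73, 0.07 and 1.76 at days 0, 3, 5 and 7. In 53 of the 69 day 7 was still below day 0, in 47 by at least 2-fold, and in 7 day 7 was at least 2-fold above day 0. In 21 risers day 0 was at least 2-fold below day 3, with medians of -3.43, -0.79, 0.75 and 2.44. The remaining 23 were within 2-fold of day 3 at day 0, with medians of -2.30, -2.44, -1.37 and -0.29. That these 2 groups ended above day 0 follows from the choice, since a riser is at least 4-fold higher at day 7 than at day 3. Of the 69 that were low at day 3, 44 were in the inferred coding block and 24 had other design numbers.

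**Figure D2:**
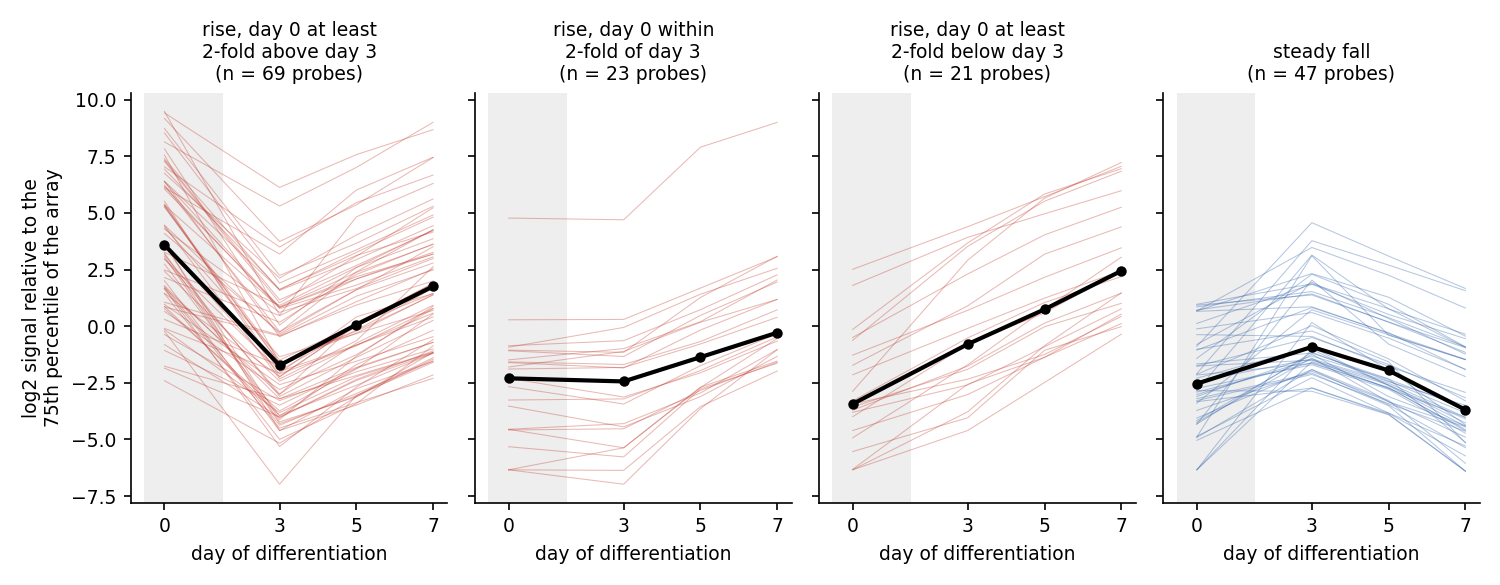
Log2 level (relative to the array's 75th percentile) by day for every steady riser and for the 47 steady fallers with a day 0 value, in panels by pattern and by the day 0 level; thin lines are probes, black lines medians, and the grey area is day 0, which was not used to choose probes. The 69 risers that were higher at day 0 dip from a median of 3.59 to -1.73 at day 3 and reach 1.76 at day 7, while the falls descend from day 3 on.

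The fat of saline-injected mice gave values independent of that choice. Brown and white fat were compared with limma on the 6 tissue arrays, in which 43444 probes were tested and 4520 (10.4%) had an adjusted p under 0.05, with 5.54% higher and 4.87% lower in brown fat. The p-values measure the spread among these arrays, and the labels, which name them biological replicates, do not say whether each was 1 mouse. Of the 113 steady risers 101 were tested, and the 54 calls (53.5%) split into 19 above and 35 below white fat; the median difference over the 101 was -1.16, and over all tested probes -0.12. Over the probes tested in both sets, 9.74% of 40041 were called. The position-centred risers gave 51 calls of 104, 18 higher and 33 lower, and the lower rows alone 30 of 55. The calls thus ran in both directions.

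The count leaned on each saline array. The risers called numbered 20 without the first and 31 without the second brown fat array, 23 without the first and 30 without the second white fat array, and in these fits 1.18%, 2.36%, 0.988% and 1.94% of all probes were called. They numbered 74 without either agonist array, where 31.7% and 31.2% of all probes were called. The split changed too, to 13 higher and 7 lower without the first brown fat array and 16 higher and 14 lower without the second white fat array. Of the 19 called higher 12 were called in every one of the 6 such fits, and of the 35 called lower 7 were.

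By starting point, the risers that had been high at day 0 gave 4 calls higher and 24 lower among 64 tested. Those that had been low at day 0 gave 8 higher and 5 lower among 19, and those level with day 3 gave 7 higher and 6 lower among 18. The difference between these groups was not tested.

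ASMM9PARTA029387 had the largest difference among the risers. Its levels were 9.05 and 8.56 in brown fat, -2.31 and -3.98 in white fat and 4.80 and 3.77 in white fat after the agonist. The difference between brown and white fat was 11.95 ± 0.62 (SE, n = 2 and 2; limma adjusted p = 0.0007), with no overlap between the groups. At 3.05 the day 7 cells were below the brown fat arrays and above the saline white fat arrays, but below both agonist white fat arrays. Unlike it, ASMM9PARTA029879, at -1.96, -0.02 and 1.76 on days 3, 5 and 7, was at 10.34 and 10.11 in brown fat and 1.09 and 1.11 in white fat, a difference of 9.13 ± 0.35 (SE; limma adjusted p = 0.000444), and it had been at 2.97 at day 0. Its agonist white fat levels were 0.97 and 1.34, next to the saline ones. ASMM9PARTA029879 was picked after its values were seen, as were ASMM9PARTA009843, ASMM9PARTA050952 and ASMM9PARTA030741 below. Their differences in fat are therefore a description of picked probes.

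ASMM9PARTA009843 was not above background at day 3 and had levels of -3.06 and -1.60 at days 5 and 7, at least 8.30-fold above the day 3 bound at day 7. In brown fat it was at 8.03 and 8.07 and in white fat at -1.59 and -2.10, a difference of 9.89 ± 0.41 (SE; limma adjusted p = 0.000444). ASMM9PARTA050952 ran from -1.69 through -0.68 to 0.72 and was at 6.43 and 6.25 in brown fat against 0.04 and 0.66 in white fat (limma adjusted p = 0.00103). ASMM9PARTA027436, described above, was at 10.7 and 10.4 in brown fat and 6.91 and 6.96 in white fat (difference 3.64 ± 0.43, SE; limma adjusted p = 0.00755). In these probes the brown fat arrays stood above both white fat arrays, and each call held in all 6 fits with an array left out.

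Other risers were lower in brown fat. ASMM9PARTA030741 ran from -2.22 through 0.08 to 1.44 in culture, and was at -0.14 and 0.79 in brown fat and 7.84 and 8.14 in white fat, a difference of -7.66 ± 0.58 (SE; limma adjusted p = 0.00195), called in all 6 fits. ASMM9PARTA031052 was at 5.10 and 6.16 in brown fat and 9.25 and 9.36 in white fat (difference -3.68 ± 0.50, SE; limma adjusted p = 0.0108), called in 5 of 6. ASMM9PARTA047131 (-2.89, limma adjusted p = 0.0315), ASMM9PARTA037347 (-2.24, limma adjusted p = 0.032) and ASMM9PARTA029945 (-1.83, limma adjusted p = 0.0363) were also lower in brown fat, each called in 2 of 6. Among the 5 first-named risers, the lincRNA locus MM9LINCRNAEXON10179- was not called in fat (difference -0.49 ± 0.39, SE; limma adjusted p = 0.443), and ASMM9PARTA049103 was not tested.

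**Figure D3:**
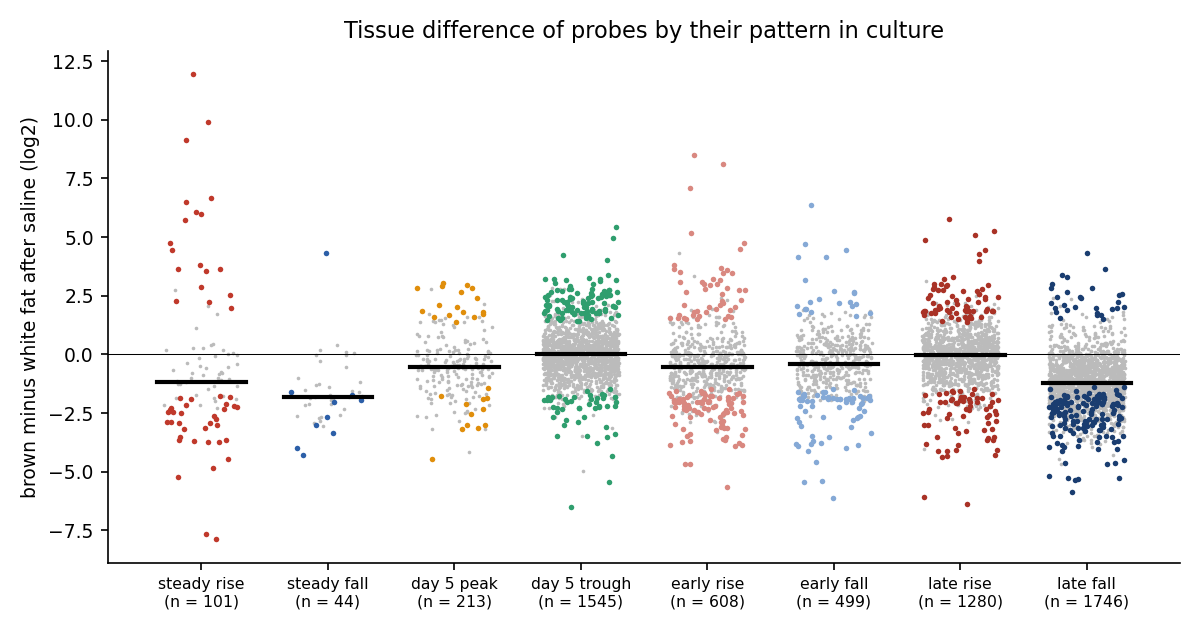
Brown minus white fat after saline (log2, limma, 2 arrays each) for every tested probe of the 8 patterns; coloured points have an adjusted p under 0.05 and black bars are medians. Steady risers hold 54 calls among 101 probes with a median of -1.16, and troughs 153 among 1545 with a median near 0.

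The 48 steady falls were fewer and dimmer. Of these, 28 were above background on all 3 arrays, with differences from day 3 to day 7 of 4.13-fold to 24.1-fold and a median of 6.34-fold. In the other 20 a day was below background, and 9 of the 20 met 2-fold at both steps by the bound. By name 37 were in the inferred coding block, 8 had other design numbers, 2 were lincRNA loci and 1 had a GenBank accession.

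ASMM9PARTA030018, first in the coding block, went from 0.16 through -1.96 to -3.69 (14.4-fold lower), and was at the lowest value of the array at day 0. It was above background at days 3, 5 and 7 but not at day 0, and highest at day 3. ASMM9PARTA028468 went from 1.94 through 0.34 to -1.23 (8.99-fold lower) after -0.81 at day 0, and it lies in the area of bright day 3 spots. Among other design numbers, ASMM9PARTA009188 went from 0.03 through -1.44 to -3.30 (9.99-fold lower) after -2.13, and ASMM9PARTA000457 from -1.48 through -2.76 to -4.03 (5.85-fold lower) after -3.02. All 4 were higher at day 3 than at day 0, and all 4 kept the pattern after position-centring.

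The largest fall on 3 measured days, picked after the values were seen, was ASMM9PARTA038441, at 3.11, -0.40 and -1.48 (24.1-fold lower). Its first step was 11.4-fold and its second 2.11-fold, and day 0 was at -4.89, not above background. It is also 1 of the 21 probes far above all other culture arrays at day 3, though outside the area that holds 16 of them. ASMM9PARTA027470 had a similar course, with levels of 2.04, -0.79 and -2.22 (19.1-fold lower) after -4.33 at day 0. Both lost most of their signal between day 3 and day 5.

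Beside day 0, 33 of the 47 falls with a day 0 value (70.2%) had been at least 2-fold lower at day 0 than at day 3, with medians of -3.11, -0.93, -2.35 and -3.82 at days 0, 3, 5 and 7. In the other 14 day 0 was within 2-fold of day 3, and in 0 was it 2-fold above. Over all tested probes 10.3% were at least 2-fold lower at day 0 than at day 3, but a high day 3 was part of the choice of falls. In fat, 44 falls were tested, and 10 were called (22.7%, against 10.4% over all tested probes). Of these 10 calls 9 were below white fat, and the median difference over the 44 was -1.80. The 1 call above was ASMM9PARTA027470 (difference 4.34 ± 0.83, SE, limma adjusted p = 0.0269). It did not hold in every fit with an array left out. The count of falls called was lower without any 1 saline array and higher without 1 agonist array, as was the share called over all probes. ASMM9PARTA040495, at -0.93, -2.61 and below background at day 7, kept its call in all 6 fits, at -2.88 and -1.84 in brown fat and 2.01 and 1.88 in white fat (difference -4.30 ± 0.49, SE; limma adjusted p = 0.00645), but it was an early fall after position-centring. ASMM9PARTA038441 was lower in brown fat by the main fit (-2.05 ± 0.44, SE; limma adjusted p = 0.0335), a call that held in 2 of 6.

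A change at a single interval was far more common. These sets also changed with position-centring, which gave 620 early rises, 684 early falls, 1389 late rises and 1903 late falls. Of these, 421, 364, 646 and 1373 had the same pattern before. The 1973 late falls, level from day 3 to day 5 and lower at day 7, had median levels of -1.91, -1.28, -1.30 and -2.76 at days 0, 3, 5 and 7. In 1560 of them (79.1%) day 0 was at or above day 7, against 57.7% of all tested probes, with a low day 7 again part of the choice. They made up 6.25% of the inferred coding block (1191 of 19056 probes), 3.27% of other design numbers (631 of 19302), 3.20% of lincRNA loci, 2.84% of GenBank probes and 5.13% of ultraconserved elements. The order of the coding block above other design numbers was the same in the upper rows (5.64% and 2.65%), the lower rows (6.86% and 3.89%) and after position-centring (6.15% and 3.13%). In fat, 1746 late falls gave 169 calls (9.68%), near the 10.4% over all tested probes. Of these calls 29 were above and 140 below white fat (1.66% and 8.02%), against 5.54% and 4.87% over all tested probes. The median difference was -1.23, against -0.12 over all tested probes. After position-centring the calls were 21 higher and 145 lower among 1709. The calls were fewer without any 1 saline array and more without 1 agonist array, and lower ones outnumbered higher ones in each of these fits. The share called over all probes moved the same way.

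Some one-interval probes with public names were picked after their values were seen. BQ895499, an expressed sequence, was at -0.15 and -0.16 on days 3 and 5 and at -3.46 on day 7, 9.82-fold lower at the last step. The lincRNA locus MM9LINCRNAEXON12018+ was at -1.23, -1.48 and -3.56, and 4.23-fold lower at that step. CF533449 was 2.78-fold lower at the last step, from 3.08 to 1.61. All 3 remained late falls after position-centring.

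Among late rises, BX523225 was at 3.31, 3.83 and 5.27, with -0.90 at day 0, so its level was higher at each later day and by 2.73-fold at the last step. The lincRNA locus MM9LINCRNAEXON11625+ went from -3.44 and -3.80 to -1.44, a 5.13-fold step, and MM9LINCRNAEXON10945- from -2.21 and -2.37 to -0.45, a 3.80-fold step. The last was higher in brown fat, at -0.73 and -1.38 against -3.07 and -2.72 in white fat (difference 1.84 ± 0.39, SE; limma adjusted p = 0.0322; 2 of 6 fits). All 3 remained late rises after centring.

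At the first interval, AK196148 stepped up 3.16-fold, from 0.73 to 2.39, and was at 2.11 at day 7. In fat it was far lower in brown, at -1.64 and -0.82 against 3.54 and 3.32 in white (difference -4.66 ± 0.41, SE; limma adjusted p = 0.00328; 6 of 6 fits). AF416735 was at 4.26 at day 0, then at -1.53 at day 3, and at 0.07 and 0.71 at days 5 and 7, a partial return. The lincRNA locus MM9LINCRNAEXON11983+ stepped down 11.6-fold, from -0.25 to -3.79, after -3.09 at day 0, so its high level was at day 3 alone. BY004369 had a like course (0.08, -2.19 and -1.78 after -1.65 at day 0), but it lies in the area of bright day 3 spots.

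Early rises gave 138 calls among 608 in fat (22.7%), 49 higher and 89 lower in brown fat. Early falls gave 88 among 499 (17.6%), 22 higher and 66 lower. Late rises gave 137 among 1280, 70 higher and 67 lower, and after position-centring 164 among 1159, 78 higher and 86 lower. The shares of early rises and early falls were above that over all tested probes (10.4%), and that of late rises near it. The split of the early rises turned without the first brown fat array, to 9 higher and 7 lower, and without the second saline white fat array, to 22 higher and 17 lower. Without the second brown fat or the first saline white fat array it was 22 higher and 25 lower, and 8 higher and 12 lower.

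The day 5 troughs were the largest two-step pattern and the one most tied to position. Their median levels were -2.47, -2.67, -4.23 and -2.55 at days 0, 3, 5 and 7. In 1844 of 2062 with a day 0 value (89.4%) day 0 was within 2-fold of day 3, against 81.2% of all tested probes. In 1806 (87.6%) it was at least 2-fold above day 5, against 15.8% of all, though a low day 5 was part of the choice. In 1147 of the 2064 an array was below background, and 258 of these met 2-fold at both steps by the bound, which leaves 1175 measured or bounded troughs. Across the 32 blocks of the array the share of troughs ran from 0.0742% to 25.4%, with a median of 0.785%. The 7 blocks above 10% were all in the upper rows and held 1651 of the troughs among 9385 tested probes. In 92.8% of troughs another trough lay within 3 rows and 3 columns, against 33% of other tested probes.

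Signal level went with it as well. Over 4 equal bins of tested probes, from the dimmest to the brightest, the trough share was 20.1%, 9.82%, 4.45% and 0.593% in the upper rows, and 2.83%, 0.296%, 0.0183% and 0.0186% in the lower rows. In each bin it was therefore higher in the upper rows. Of 15 probes printed 20 times across the array, 7 were lower at day 5 than at both other days and 0 had a step of 2-fold, with a median SD over spots of 0.0857. In fat, 153 of 1545 tested troughs were called (9.90%), near the 10.4% over all probes, with a median difference of -0.0004. That count fell without any 1 saline array and rose without 1 agonist array, as did the share called over all probes.

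**Figure D4:**
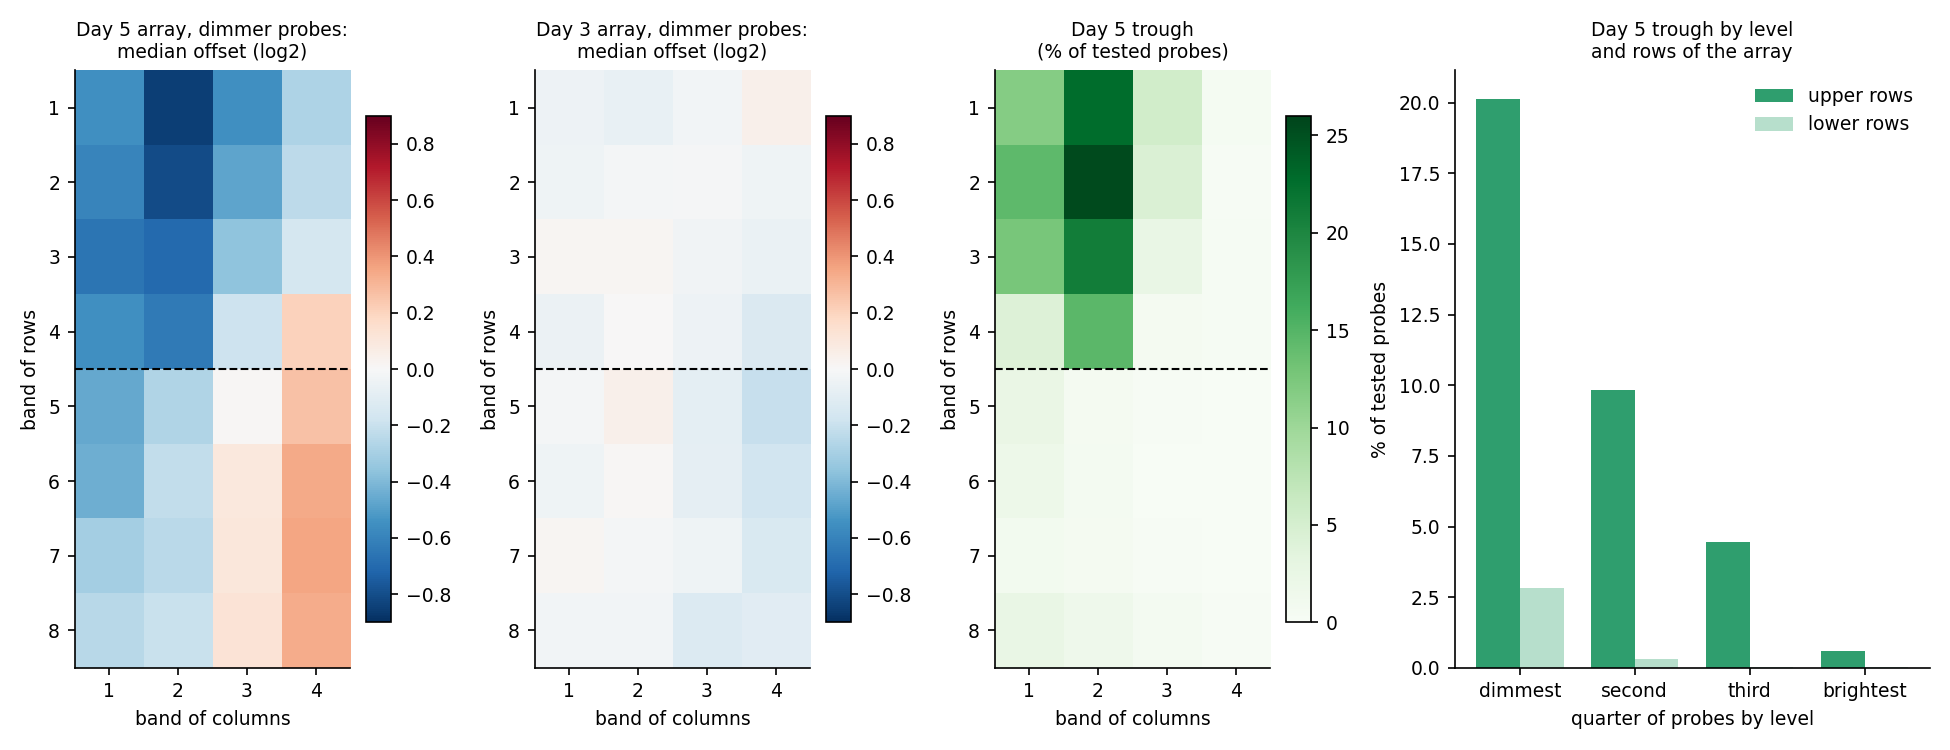
Maps of the array in 8 row bands and 4 column bands show the day 5 and day 3 levels minus the median of the other culture arrays (log2, dimmer probes) and the share of probes that are troughs; the bars give the trough share by bin of signal level, for rows above and below the dashed line. The day 5 map reaches -0.85 and the trough share 25.4% in blocks of the upper rows, while the day 3 map stays between -0.21 and 0.05.

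The troughs with the largest steps all lay in the upper rows. ASMM9PARTA008391 was at -0.41, -3.49 and -0.47, with steps of 8.47-fold down and 8.11-fold up, and at -0.61 at day 0. ASMM9PARTA047253 was at 1.35, -1.15 and 1.82, but at -1.79 at day 0, below its day 5 level. In the coding block ASMM9PARTA043854 was at -1.61, -3.72 and -1.49. Each had 4 to 17 other troughs within 3 rows and 3 columns. Among GenBank probes CJ077309 was at -0.58, -2.39 and -0.35, and BI500027, BY365057 and AK082195 stepped down by 2.93-fold to 3.21-fold and up by 3.55-fold to 4.06-fold. Among lincRNA loci humanlincRNA1432- was at -0.33, -2.43 and -0.09 and at -5.51 at day 0, not above background. Like it, humanlincRNA0103-, MM9LINCRNAEXON10888+ and MM9LINCRNAEXON10686- stepped down by 3.98-fold to 4.25-fold.

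Ultraconserved elements are stretches of genome that are identical between distant mammals, and some are transcribed. Among them uc.57+ was at -1.04, -2.81 and -0.75, uc.258+ at 0.41, -1.06 and 0.74, and uc.339+ and uc.6- stepped down by 2.87-fold and 2.63-fold. All 4 were within 2-fold of day 3 at day 0. Of these, uc.339+ differed in fat, 1.92 ± 0.44 higher in brown (SE; limma adjusted p = 0.0398; 2 of 6 fits).

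In the lower rows the troughs with the largest steps, picked after the values were seen, were shallower. MM9LINCRNAEXON10650+ was at -1.61, -2.70 and -1.46, and ASMM9PARTA040303, in a neighbouring spot, was at -1.99, -3.86 and -2.32. ASMM9PARTA001127 was at -2.08, -3.34 and -1.59 with 0 troughs around it, and at -4.04 at day 0. These 3 remained troughs after position-centring.

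The trough share also differed between classes of probe name. It was 3.79% in the inferred coding block (723 probes, median level -0.94), 5.10% in other design numbers (984, -1.35), 7.14% in lincRNA loci (239, -1.99), 8.24% in GenBank probes (61, -1.81) and 10% in ultraconserved elements (45, -2.36). The NM accessions (4 of 93 probes, 4.30%, median level -0.23) and accessions on custom probes (8 of 153, 5.23%, -0.50) were smaller and brighter classes. Their shares, from 4 and 8 troughs, lay within the range of the first 5 classes. In the upper rows the shares of the first 5 classes were 6.99%, 9.23%, 13.6%, 15.7% and 19.3%. In the lower rows they were 0.608%, 0.936%, 0.826%, 1.06% and 0.455%, so that the ultraconserved elements, with 1 trough among 220 probes there, were lowest instead of highest. After position-centring they were 1.77%, 2.58%, 3.32%, 4.05% and 6.03%. The part of signal level in the order of the classes was not tested. Of 1084 lincRNA loci with probes for both strands tested, 11 were troughs on both. Of the 2168 probes of these pairs 164 were troughs (7.56%), and for 13.4% of the 164 the probe for the other strand was a trough too.

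Steady rises by class were 0.341% of the coding block, 0.244% of other design numbers and 0.0299% of lincRNA loci, where 1 probe of 3346 was a riser. Day 7 was at least 2-fold above day 3 for 4.85% of the coding block, 3.74% of other design numbers, 1.88% of lincRNA loci, 2.16% of GenBank probes and 1.79% of ultraconserved elements. It was at least 2-fold below for 8.02%, 4.35%, 2.63%, 3.65% and 6.25%. In each of these 5 classes lower probes outnumbered higher ones. Over all classes together, the brighter probes alone gave 1135 higher and 1104 lower.

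**Figure D5:**
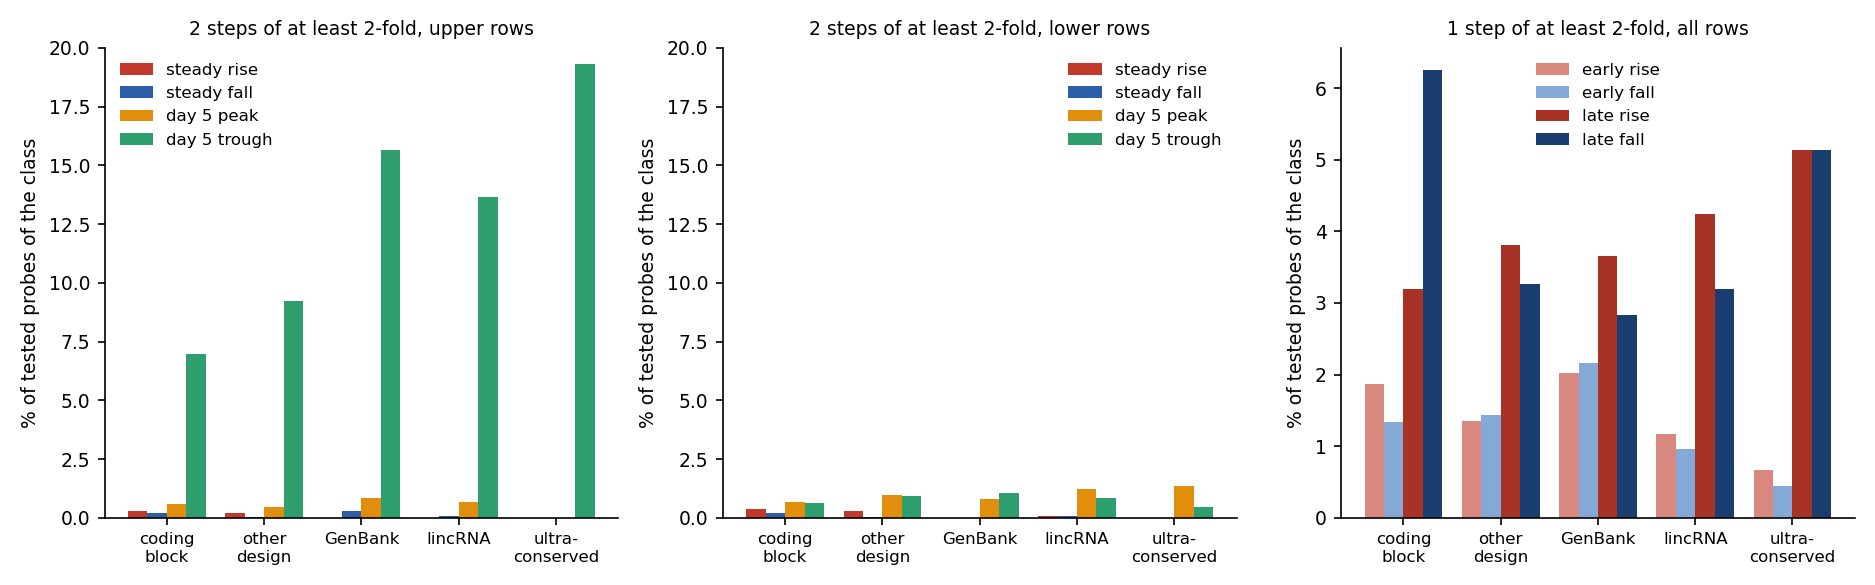
Share of tested probes with each two-step pattern by probe-name class in the upper and the lower rows of the array, and with each one-step pattern over all rows. Troughs reach 19.3% of ultraconserved elements in the upper rows and 0.455% in the lower rows, and late falls are 6.25% of the inferred coding block and 3.27% of other design numbers.

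The 301 day 5 peaks were mostly dim probes. Their median levels were -3.16, -3.62, -1.80 and -3.60 at days 0, 3, 5 and 7, and 230 of them (76.4%) had a day 0 level within 2-fold of day 3. Another peak lay within 3 rows and 3 columns for 52.5% of them, against 15.5% of other tested probes. The first-ranked peaks sat together. ASMM9PARTA027333 (-3.08, 0.31 and -2.76), ASMM9PARTA002368 (-3.69, 0.19 and -3.32) and ASMM9PARTA040639 (-0.67 at day 5 and -4.63 at day 3, below background at day 7) lay in rows 226 to 229 of the same column. ASMM9PARTA008921 (-4.41, -0.24 and -3.91) and ASMM9PARTA020452 (-3.08, 0.06 and -2.98) were diagonal neighbours. So these peaks, up to 17.9-fold, lay in a pair of small areas of the array.

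Peaks with public names were smaller. Among GenBank probes BE992010 was at -0.30, 1.13 and -0.66, a step of 2.70-fold up and 3.48-fold down, after -1.46 at day 0. AK090059 was at -0.74, 0.27 and -0.94 with 0 peaks around it, and CR519240 was at -4.22, -2.20 and -3.30. These kept the pattern after centring, and BY668174 (4.60, 5.69 and 4.66) became an early rise. Among lincRNA loci MM9LINCRNAEXON10963+ was at -3.21, -0.47 and -3.19 (6.70-fold up and 6.62-fold down), MM9LINCRNAEXON10928- at -3.23, -1.22 and -3.62 and MM9LINCRNAEXON10837+ at -3.96, -2.18 and -3.78. The day 5 level was the only high one in each. In fat, MM9LINCRNAEXON10928- was lower in brown (difference -2.99 ± 0.63, SE, limma adjusted p = 0.0319, 2 of 6 fits). MM9LINCRNAEXON11501- was at 0.13, 1.65 and 0.11 but had no 2-fold step after centring; it was higher in brown fat, at 4.92 and 3.72 against 1.43 and 1.12 in white (difference 3.05 ± 0.50, SE; limma adjusted p = 0.0183; 3 of 6 fits). In the lower rows MM9LINCRNAEXON10118- was at -2.16, -0.43 and -1.95, and it was 2.10 ± 0.41 higher in brown fat (SE; limma adjusted p = 0.0281; 2 of 6 fits). MM9LINCRNAEXON10118- was picked after its values were seen. In fat, 213 peaks gave 29 calls (13.6%, against 10.4% of all tested probes), 17 above and 12 below white fat. After position-centring the split turned, to 9 higher and 18 lower among 278, and of the 427 centred peaks 218 had been peaks before. Fewer peaks were called without any 1 saline array and more without 1 agonist array, and the share called over all probes moved the same way.

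Genes with a symbol were few on this array. Of 116 probes with 1 symbol 91 were tested, and 85 of the 91 had no 2-fold step, against 83.1% of all tested probes. The day 5 troughs among them, where 4.78% of all probes are troughs, were 4 vomeronasal receptor or predicted gene probes, Gm3286 (-0.80, -1.93 and -0.74), Vmn1r259, Vmn1r186 and BC147527 (-2.32, -3.56 and -2.28), and after position-centring only Vmn1r259 and BC147527 were. The late rise of Vmn1r187 and the early fall of Mia3, which takes part in collagen export, had no step after centring.

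From day 3 to day 7 directly, 5 of the 91 symbol probes were at least 2-fold higher and 0 at least 2-fold lower, against 4.04% and 5.83% of all probes. Actb, cytoplasmic actin, was at 5.93, 6.37 and 7.01 (2.11-fold) after 8.17 at day 0, so part of its day 0 level was regained. Aida, an axin-binding protein, was at 0.92, 1.75 and 2.03 (2.16-fold) after 3.46 at day 0. Both lay below their day 0 level at day 7. Sly (3.63-fold), Ssty1 (2.47-fold) and Gm20831 (2.12-fold) belong to gene families of the Y chromosome with many near-identical copies, and their probes may bind several of them. Their day 7 levels were -2.61, -1.39 and -1.55.

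The other reference genes were steady at this scale. Ppia, a peptidyl-prolyl isomerase, was at 9.40, 9.29 and 9.67, B2m at 9.04, 9.13 and 9.33 and Gapdh at 9.79, 9.65 and 9.82 at days 3, 5 and 7. Hprt (7.14, 6.97 and 7.33), Gusb (3.79, 3.37 and 3.61) and Tbp (1.78, 1.75 and 1.32) also stayed within 2-fold, as did Tfrc, the transferrin receptor, at 7.46, 8.02 and 8.04. None of these probes showed a trough of 2-fold. Gk was higher in brown fat, at 0.59 and 0.80 against -1.79 and -1.67 in white fat (difference 2.43 ± 0.34, SE; limma adjusted p = 0.0117; 2 of 6 fits), and its day 7 level of -0.41 lay between them.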

How the data were processed

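Members and lists were chosen with earlier results of these data known. The deposited scanner intensity is background-subtracted by Agilent Feature Extraction, version 11.0.1.1 per the file headers; the submitters' processing notes name version 9.1. The authors' deposited value table holds log2 values of 18997 probes, with normalization and centring not given in the sources used here; it was used as an alternative. Its columns followed the log2 signal of their arrays at r of 0.999 to 1.00 with medians of 7.36, 7.37 and 7.45 at days 3, 5 and 7.

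Control spots and outlier-flagged spots were left out, spots of a probe were averaged on the log2 scale, and each array's 75th percentile was subtracted. Steps of 2-fold set the patterns. Position-centring subtracts the median offset of a probe's surroundings on each array. Named probes were the first of each class by the smaller of the 2 steps (2 per design-number class, 4 per other class). These were taken among probes above background on all 3 arrays. Also named were the first bounded ones, symbols with a step, the reference genes and Gk. All others were picked after their values were seen. Of 123 RefSeq probes 116 had 1 symbol, from mouse GRCm38.p6 names.

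Fat was tested with limma 3.58.1 (R 4.3.3; lmFit and eBayes, group means over 6 arrays, Benjamini-Hochberg adjusted), two-sided, at an adjusted p of 0.05. The number of arrays limits the precision. Patterns were counted with Python 3.11.15 and pandas 2.3.3. The scripts were checked on simulated data. Alternatives changed the scaling, background correction, filters, fold, rows of the array and arrays. Gene names of design numbers and probe sequences were not analysed here.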

Additional observations from a re-analysis of the deposited data

How the results depend on the processing

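Counts of steady rises, steady falls, peaks and troughs are given in that order, then the counts at least 2-fold higher and lower at day 7 than day 3 where they moved by over 1.5 times. The main counts were 113, 48, 301 and 2064, and 1742 and 2517. Quantile normalization gave 490 peaks and scaling to the median 525. Normexp background correction with quantile normalization gave 51, 11, 82 and 138, and 771 and 1247. The deposited value table, over its own probes, gave 24, 7, 123 and 518, and 457 and 649, where the scanner values of the same probes gave 27, 5, 82 and 677, and 572 and 619. Probes above background on all 3 arrays gave 28 falls, 196 peaks and 917 troughs, and no filter gave 87 falls and 1042 peaks, and 2966 and 4595. Steps of 1.5-fold gave 423, 395, 1735 and 4669, and steps of 3-fold 25, 2, 72 and 679. Requiring both steps in 1 direction and 2-fold over the whole interval gave 1431 rises and 1790 falls. Chosen after seeing the data, the brighter probes alone gave 75, 19, 66 and 271, and 1135 and 1104, the lower rows 65, 24, 185 and 169, and 912 and 1269, and position-centring 1011 troughs. The cause of these differences was not tested.

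In the limma fit of brown against white fat the calls were 54 risers, 10 falls, 29 peaks and 153 troughs. Without a filter they were 34, 2, 10 and 54, normexp gave 4 falls, and probes above background on all 6 arrays gave 6 falls. The saline groups alone gave 33 falls, 87 peaks and 427 troughs. The share called over all probes moved as well, and the counts are read against it. This share was 10.4% in the main fit, 2.32% without a filter and 14.3% with normexp. It was 17.3% for probes above background on all 6 arrays, 32.8% for the saline groups alone and 14.3% with the replicate block below. Leaving out 1 array gave 20 to 74 risers, 1 to 33 falls, 1 to 84 peaks and 11 to 412 troughs; the lone array left is assumed to vary like the others. With the replicate number as a block the calls were 61 risers, 14 falls, 50 peaks and 229 troughs, but same-numbered arrays correlated at -0.02, -0.08 and 0.50, so the numbers were not taken to pair samples. Of 872 values of named probes under these settings, 0 reversed and 144 moved by more than the spread. With 1 array per day, that spread is not one of replicate cultures. The moved values were 108 of 200 with normexp and 36 of 200 after position-centring. Quantile normalization, scaling to the median and the deposited value table had 0 moved. With 1 array per day, dim probes near background and the place on the array limit what the day patterns can show.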
